A study of Bos taurus with 27 samples.

Results

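The genes of respiratory complex I that the mitochondrial genome encodes (ND1, ND2, ND3, ND4, ND4L, ND5 and ND6) and cytochrome b (CYTB) of complex III were followed in the rumen epithelium (RE) of fattening cattle, with ND6, encoded on the light strand, set against the genes encoded on the heavy strand. Of the 8 genes, 7 had a probe among the 15008 non-control probes of the array, 6 of the heavy strand and ND6, and ND3 is not analysed here because no probe carried its name. The genes and the contrast were selected on measured values, since the opposite course of ND6 over the stages had been seen in these data. Their stage differences below are therefore a description, and significance calls given for them are not read as tests. The samples were RE biopsies of the same 9 Japanese Black cattle, castrated and rumen-fistulated, taken at an age of 14 months (Early stage), of 21 months (Middle stage) and of 29 months (Late stage). All cattle were on a high-concentrate diet at every stage, so no stage is free of the diet. Per the paper, its share of forage and the protein content of the concentrate differed between stages. Age, time on the diet and its composition therefore cannot be told apart. RNA of each biopsy was measured on 1 array of 1 color, 27 arrays in all, 9 per stage. Arrays with the same running number in their titles were taken as the same animal, which the labels do not state.

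Mitochondrial DNA is transcribed from both strands into long RNAs that are cut into single messenger, ribosomal and transfer RNAs. Almost all protein genes are read from the heavy strand as template, whereas ND6 is the sole protein gene of the light strand, so its RNA comes from a separate long transcript. The ND proteins form the membrane arm of complex I, which passes electrons from NADH to ubiquinone and pumps protons, and CYTB is the core of complex III, which takes the electrons on to cytochrome c. In the RE these complexes serve the oxidation of absorbed short-chain fatty acids.

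The probes that carry every value of these genes below are printed 5′ to 3′ with the guanines in capitals, to show how the light-strand gene differs in base composition from these heavy-strand genes.
ND1: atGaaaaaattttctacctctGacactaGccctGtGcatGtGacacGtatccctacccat
ND2: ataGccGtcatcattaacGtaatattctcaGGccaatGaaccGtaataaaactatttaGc
ND4L: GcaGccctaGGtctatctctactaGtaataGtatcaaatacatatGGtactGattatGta
ND4: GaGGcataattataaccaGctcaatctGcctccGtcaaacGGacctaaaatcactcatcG
ND5: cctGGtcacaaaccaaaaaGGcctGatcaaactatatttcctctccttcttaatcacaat
ND6: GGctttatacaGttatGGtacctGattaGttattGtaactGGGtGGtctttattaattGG
CYTB: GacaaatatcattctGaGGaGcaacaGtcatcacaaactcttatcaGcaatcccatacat
On the UMD 3.1 cattle assembly used by the array design, the probe positions are chrM:3967-4026 for ND1, chrM:4479-4538 for ND2, chrM:10449-10508 for ND4L, chrM:11328-11387 for ND4, chrM:13833-13892 for ND5, chrM:13950-14009 for ND6 and chrM:14920-14980 for CYTB. The 6 heavy-strand probes read along the plus strand of the files' coordinates and the ND6 probe along the minus strand, with 57 bases between the ND5 and ND6 probes. The ND6 probe held 15 guanines and 6 cytosines among 60 bases, whereas the heavy-strand probes held 5 to 10 guanines and 11 to 18 cytosines. Guanine made up 25.0% of the ND6 probe and 8.33 to 16.7% of the heavy-strand probes, against a median of 21.7% over all 15008 probes. Each of these genes had 1 probe printed once, every one of the 7 was well above background on all 27 arrays, and no spot was saturated.

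Middle-stage arrays were the dimmest, which bears on every value below. Array medians of the processed signal (linear intensity) were 34.5 to 47.5 for Early, 8.05 to 28.1 for Middle and 31.4 to 45.9 for Late arrays. The arrays lay on 5 slides, and slide 2 alone held 2 stages, with 7 Middle arrays and 1 Early array, and no slide held both Middle and Late arrays. Early and Middle arrays were scanned on scan days 1 and 2, and Late arrays on scan days 3 and 4. Differences of the Late stage from either other stage therefore cannot be told apart from slide and scan day. Of 11 epithelial markers 9 were well above background on all 27 arrays, although KRT4 was so on none. The extraction text of the labels names neutrophils and liver. Of the liver markers 0 of 7 were well above background on all arrays, although APOA1 was so on 26, TTR on 23 and AHSG on 18 of the 27 arrays and ALB and FGA on none. Of the neutrophil markers 1 of 4, S100A12, was so on all arrays, although CSF3R was so on 22, CXCR2 on 19 and MMP9 on 5 of the 27. The summed epithelial marker signal was 3401 to 4527 array medians in Early, 863 to 4479 in Middle and 3966 to 4944 in Late biopsies. The summed signal of 3 red blood cell markers was 38.7 to 67.7, 104 to 198 and 44.7 to 89.9 array medians, and the Middle range overlapped neither other range. Of these markers only HBA was well above background on all 27 arrays, with ALAS2 so on 3 and HBB on 2. These sums are relative to array medians, which were themselves lowest at the Middle stage, so they do not show that Middle biopsies held more blood. The part of array brightness and of these markers in the stage differences was not tested.

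ND6, a membrane subunit beside the junction of the arms of complex I, had its highest signal at the Middle stage in every animal. Its processed signal, before any scaling, was 90.9 to 255 (median 103) at the Early stage, 128 to 922 (median 290.0) at the Middle stage and 40.5 to 107 (median 58.0) at the Late stage. The Middle signal exceeded both the Early and the Late signal of the same animal in 9 of 9 cattle, although the Early and Middle ranges overlapped. Cattle 1, 3, 4 and 9, at 244, 147, 128 and 142 at the Middle stage, lay below the highest Early value. Cattle 5 and 6 had the highest values at both the Early (166 and 255) and the Middle stage (668 and 922). Levels are given from here on as log2 of the processed signal minus the array median. The ND6 level was 1.57 ± 0.43 (SD, n = 9) in Early, 4.05 ± 0.61 in Middle and 0.66 ± 0.43 in Late biopsies, and on this scale the Middle range of 3.16 to 5.04 overlapped neither the Early range of 1.08 to 2.51 nor the Late range of 0.14 to 1.59.

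**Figure D1:**
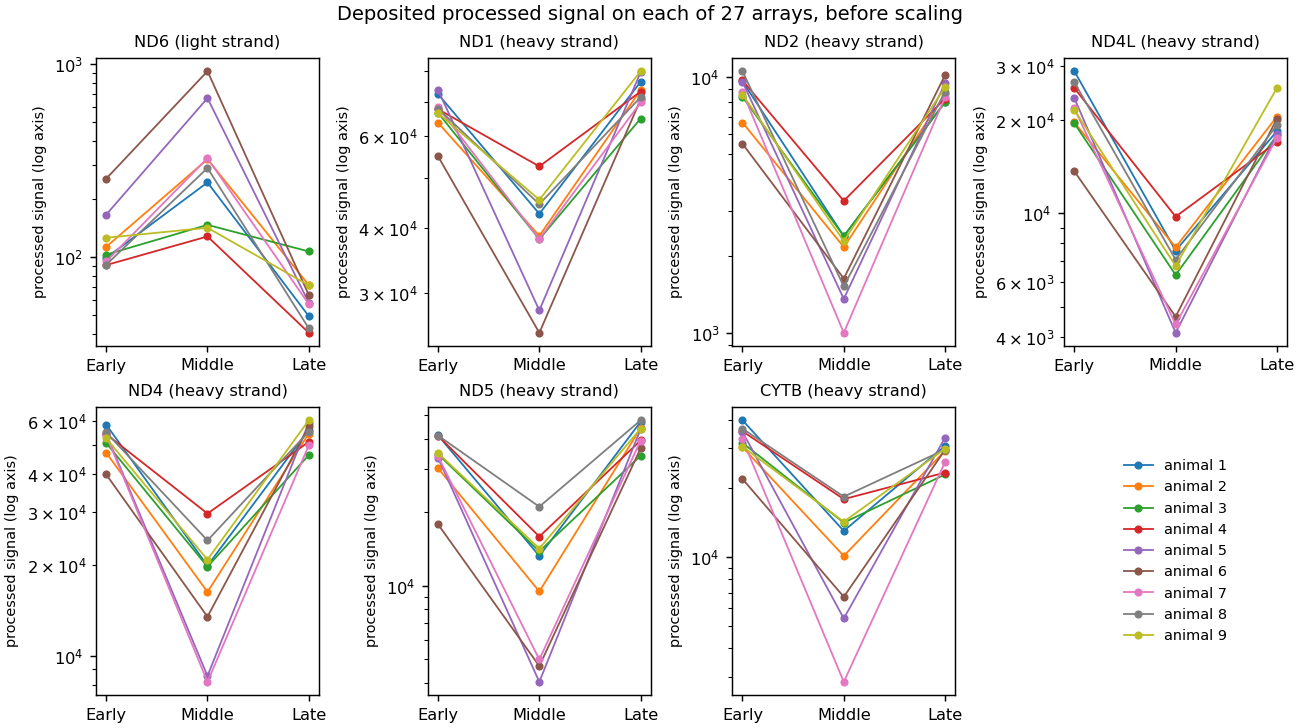
Processed signal of each gene (linear intensity units on a log axis) at the 3 stages, as deposited and before scaling, with 1 line per animal. ND6 peaked at the Middle stage in all 9 cattle, whereas each heavy-strand gene was lowest there in all 9.

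The heavy-strand genes took the opposite course in unscaled signal. ND2, one of the proton-pumping antiporter-like subunits, gave 5484 to 10534 (median 8736) in Early, 1002 to 3281 (median 2166) in Middle and 7972 to 10169 (median 8558) in Late biopsies. The other antiporter-like subunits are ND4 and ND5. The ND4 signal was 39834 to 58244, 8182 to 29545 and 46161 to 60208 at the 3 stages in turn. The ND5 signal was 17832 to 41329, 4027 to 21048 and 34092 to 47636. For ND2 and ND4 the Middle range lay below both other ranges, and for ND5 it overlapped the Early range, because animal 6 was at 17832 at the Early and animal 8 at 21048 at the Middle stage. ND1, which helps to form the ubiquinone-binding site, moved least, from 54965 to 73733 through 25186 to 52559 to 64942 to 80074. ND4L, a small membrane subunit, gave 13689 to 28836, 4113 to 9763 and 17014 to 25452. CYTB gave 22027 to 39796, 2847 to 18421 and 23039.5 to 33441. For these 3 genes no Middle value reached an Early or Late value. For all 6 genes the Middle signal was the lowest of the 3 in each of the 9 cattle. The median Middle signal was 57.1% of the median Early signal for ND1, 39.7% for CYTB, 38.3% for ND5, 36.7% for ND4, 31.0% for ND4L and 24.8% for ND2. ND1 also had the brightest of the 6 probes (Early median 67701) and ND2 the dimmest (8736). The order was not strict, since ND4 (53732) kept less than CYTB (32873). The part of probe brightness in these shares was not tested, so they are not read as differences between genes. In bulk tissue, fewer cells of a type and less RNA per cell cannot be told apart.

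Relative to the array median, the heavy-strand differences were smaller and the cattle were divided. During the first period (Middle against Early), the log2 level changed by 0.43 (SE 0.21) for ND1, −0.93 (SE 0.25) for ND2, −0.58 (SE 0.22) for ND4L, −0.42 (SE 0.26) for ND4, −0.56 (SE 0.29) for ND5 and −0.48 (SE 0.32) for CYTB, against 2.48 (SE 0.22) for ND6. ND2 was lower in 8 of 9 cattle and CYTB in 5 of 9, and animal 4, whose Middle array was the dimmest at a median of 8.05, had the highest change of each heavy-strand gene. During the second period (Late against Middle), the changes were −0.20 (SE 0.21) for ND1, 1.06 (SE 0.25) for ND2, 0.49 (SE 0.22) for ND4L, 0.58 (SE 0.26) for ND4, 0.96 (SE 0.29) for ND5 and 0.37 (SE 0.32) for CYTB, against −3.39 (SE 0.22) for ND6. Among all probes ND6 ranked 8 by rise in the first period and 22 by fall in the second.

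Over the members, limma called 1 gene higher (ND6) and 2 lower (ND2 and ND4L) of 7 in the first period, where 45.3% of all 15008 probes were called higher and 21.3% lower. In the second period 2 were called higher (ND2 and ND5) and 1 lower (ND6), where 27% of all probes were called higher and 44.6% lower. Nothing is read from these counts, because the genes were selected on these contrasts. Without animal 4 the counts became 6 and 5. ND4L was no longer called at the 75th percentile (−0.52), nor without animal 1, 2, 5, 7 or 8 (log2 changes of −0.55, −0.56, −0.45, −0.52 and −0.56), and ND1 became called higher without animal 5 or 6 (0.55 and 0.54). A fit with a random slide block called ND6 alone in both periods.

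**Figure D2:**
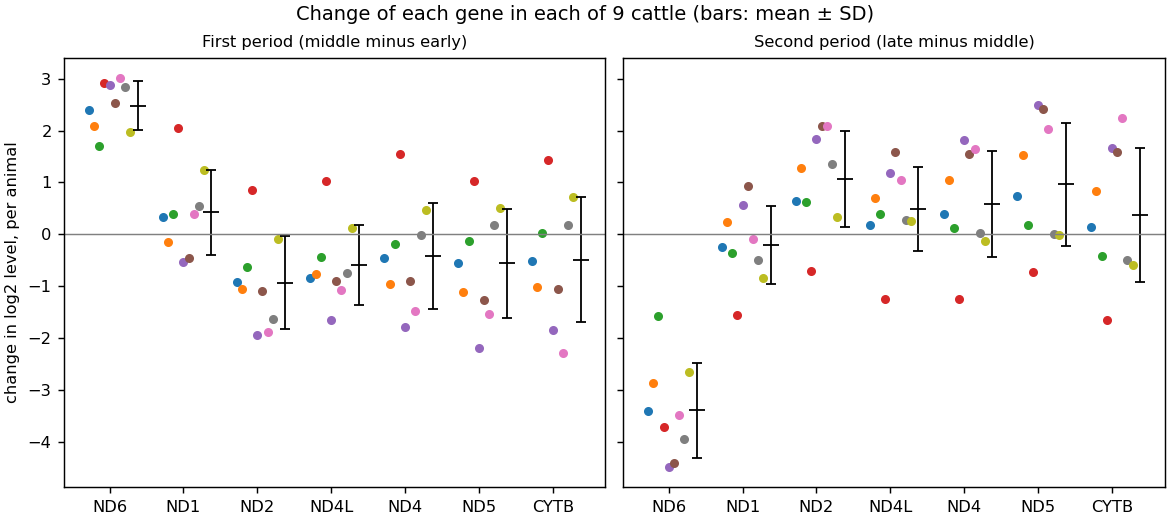
Change in log2 level (relative to the array median) of each gene in each of 9 cattle, 1 color per animal as in the plot of signals, with the mean and SD over cattle beside the points. ND6 changed by 1.69 to 3.02 during the first period and by −4.49 to −1.57 during the second, whereas the points of each heavy-strand gene lie on both sides of 0.

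The difference between ND6 and the heavy-strand genes is the same whatever value is subtracted from an array, because both are read from that array. ND6 minus the mean of the 6 heavy-strand genes changed by 2.90 ± 1.11 (SD, n = 9 cattle) on the log2 scale in the first period, a 7.48-fold shift, with a range of 1.48 in animal 9 to 4.54 in animal 5. In the second period it changed by −3.93 ± 1.57, a 15.2-fold shift, with a range of −6.10 in animal 6 to −1.66 in animal 3. Its sign was the same in 9 of 9 cattle in each period, and taken gene by gene in all 54 pairs of a heavy-strand gene and an animal in each. The pairs of an animal share its ND6 values, and the heavy-strand genes varied together. The pairs are therefore not independent and add no replicates to the 9 cattle. The gene-wise means ran from 2.05 (ND1) to 3.41 (ND2) during the first period and from −4.45 (ND2) to −3.18 (ND1) during the second. The part of this shift that came from ND6 was the larger on the median scale, since the mean of the heavy-strand genes changed by −0.42 ± 0.92 and 0.54 ± 0.96, with 7 of 9 cattle on the side of the mean in each period. All differences of the second period share the Middle arrays with those of the first.

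How the shift divides between ND6 and the heavy strand rests on the scaling. The median probe itself changed by 0.32 during the first and by −0.27 during the second period after median scaling, and relative to it the heavy-strand mean changed by −0.75 and 0.81 and ND6 by 2.16 and −3.12. Over the other settings, apart from those leaving out an animal, the heavy-strand mean relative to the median probe ran from −0.87 to −0.41 for the first period (14 settings) and from 0.40 to 0.81 for the second (11 settings). Without scaling, the heavy-strand mean changed by −1.65 and 1.68 and ND6 by 1.25 and −2.25. ND1 turned from 0.43 to −0.80 without scaling in the first period, and from −0.20 to 0.93 without scaling and 0.30 under normexp background correction in the second. With the slide as a fixed block, which can tell stage from slide in the first period only by way of cattle 8 and 9, whose Middle arrays lay on slide 3, ND6 minus the heavy-strand genes changed by 1.52 and ND6 by 1.55, and neither ND6 nor any other of the genes was called. On slide 2 alone the shift was 3.07, between 7 Middle arrays and the Early array of animal 9.

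**Figure D3:**
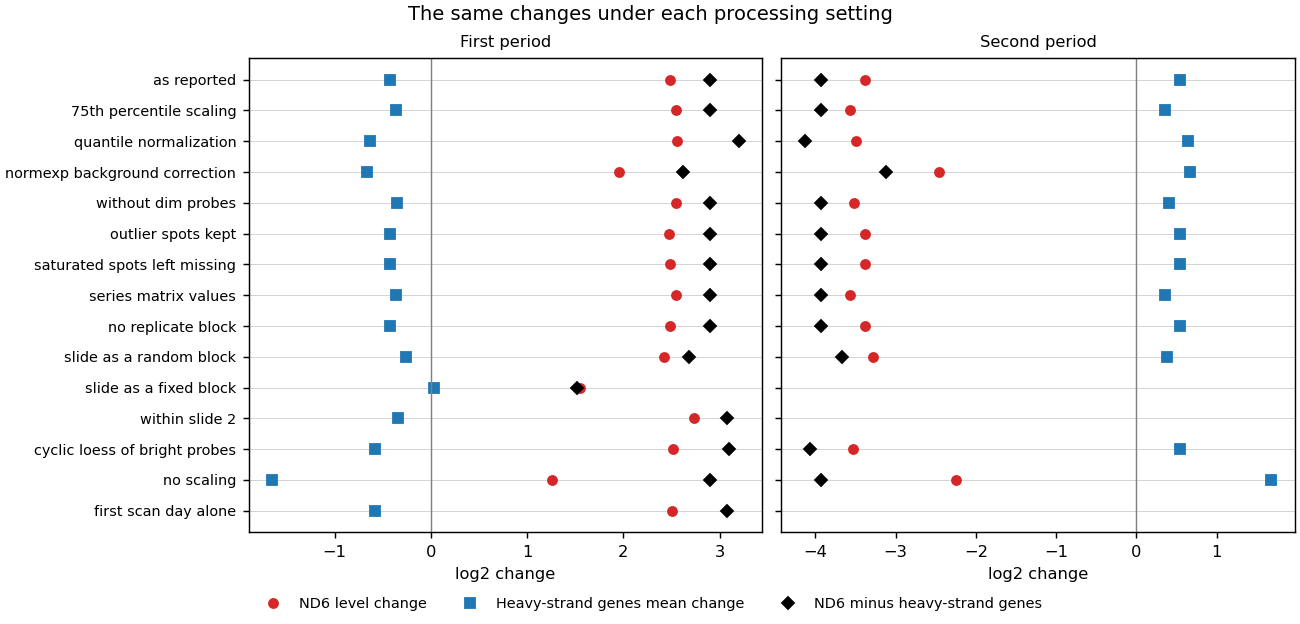
Log2 changes of ND6, of the mean of the 6 heavy-strand genes and of their difference in the first and second periods, under each processing setting (rows). The difference stays between 1.52 and 3.20 during the first period and between −4.13 and −3.12 during the second, whereas without scaling the heavy-strand mean and ND6 both move to the left during the first period and to the right during the second.

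From the Early to the Late stage (total period) the genes came back to near their starting levels, apart from ND6. The log2 changes were 0.22 (SE 0.21) for ND1, 0.14 (SE 0.25) for ND2, −0.10 (SE 0.22) for ND4L, 0.16 (SE 0.26) for ND4, 0.40 (SE 0.29) for ND5, −0.11 (SE 0.32) for CYTB and −0.91 (SE 0.22) for ND6. Late levels of ND1 and ND5 exceeded Early levels in 9 of 9 cattle, although by 0.03 to 0.49 and 0.06 to 1.16, and ND6 was lower in 8 of 9, with animal 3 the exception at 0.12. Of the 7 genes limma called 0 higher and 1 lower (ND6), where 11.2% of all probes were called higher and 8.93% lower. At an unadjusted *P* below 0.05 limma also passed ND6 alone, and the methods' t-test called ND1 and ND5 higher beside ND6. A random slide block left ND6 uncalled (−0.86). Nothing is read from the calls of this period either, because the genes were selected on their course over the stages.

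Differences between cattle within a stage were not used in choosing the genes. The heavy-strand genes varied together across the 9 cattle, with Pearson's r between pairs of genes of 0.865 to 0.988 in Early, 0.816 to 0.970 in Middle and 0.178 to 0.899 in Late biopsies (15 pairs each), as a description of genes that share the array and its scaling. ND6 ran against all 6 of them at the Early (r of −0.827 to −0.506) and Middle stages (−0.702 to −0.578) and against 4 of 6 at the Late stage (−0.386 to 0.284). Between ND6 and the heavy-strand mean, Pearson's r was −0.710 at the Early stage (two-sided exact permutation *P* = 0.0510, adjusted over the 3 stages 0.0913) and Spearman's rho −0.483 (exact permutation *P* = 0.194, adjusted 0.291). At the Middle stage r was −0.643 (exact permutation *P* = 0.0609, adjusted 0.0913) and rho −0.583 (exact permutation *P* = 0.108, adjusted 0.291). At the Late stage r was −0.178 (exact permutation *P* = 0.658, adjusted 0.658) and rho −0.200 (exact permutation *P* = 0.613, adjusted 0.613). None of the 3 relations passed the threshold after adjustment. Without the 2 cattle farthest from the median of the heavy-strand mean, r was −0.304 at the Early stage (without cattle 1 and 6), −0.183 at the Middle stage (without cattle 5 and 6) and −0.341 at the Late stage (without cattle 1 and 7), so the relation at the first 2 stages rests on those samples. Animal 6 alone took the Early r to −0.127. Leaving out animal 4 gave an r of −0.839 at the Middle stage (exact permutation, adjusted *P* = 0.0336), and leaving out animal 3 turned the Late r to 0.182.

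**Figure D4:**
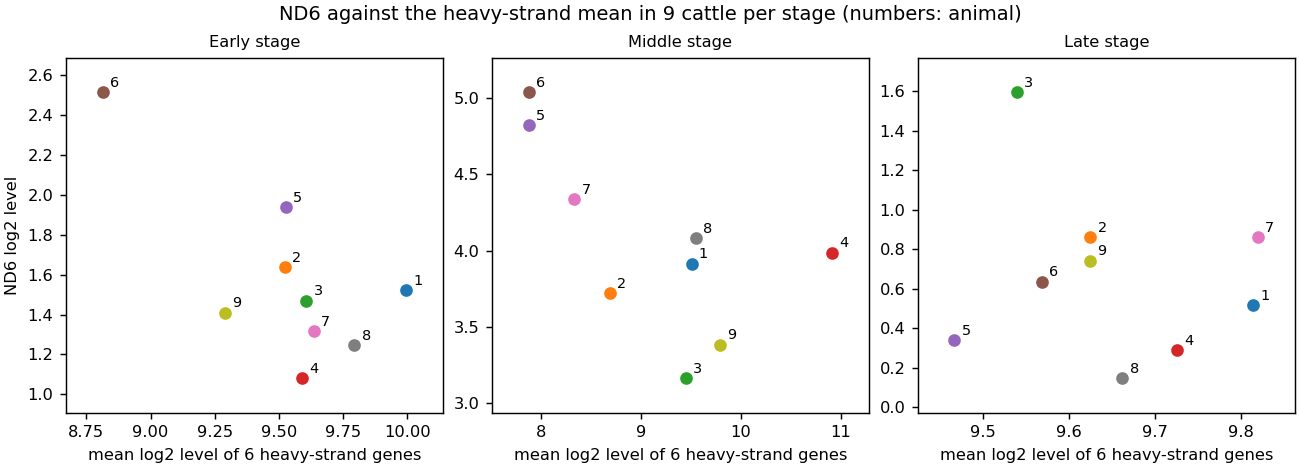
ND6 log2 level against the mean log2 level of the 6 heavy-strand genes in 9 cattle at each stage, with the animal's number beside each point. Animal 6 stands alone at the upper left at the Early stage, cattle 5 and 6 at the upper left at the Middle stage, and animal 3 at the top at the Late stage.

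Array brightness varied with this difference at the Middle stage. ND6 minus the heavy-strand mean rose with the log2 median signal of the array across the 9 Middle arrays, with Pearson's r of 0.804 (two-sided exact permutation *P* = 0.00589, adjusted over the 3 stages 0.0177) and Spearman's rho of 0.783 (exact permutation *P* = 0.0172, adjusted 0.0517). Without cattle 4 and 6, whose arrays were farthest from the median brightness, r was 0.649 (exact permutation *P* = 0.102, n = 7), of the same direction but no longer past the threshold. At the Early stage r was 0.498 (exact permutation *P* = 0.165, adjusted 0.247) and at the Late stage 0.00274 (exact permutation *P* = 0.995, adjusted 0.995). Across stages the direction was the other one, since the dimmest arrays were those of the Middle stage, where ND6 minus the heavy-strand mean was highest. These 3 relations were computed after the values had been seen.

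The other mitochondrially encoded genes with a probe were COX2 and COX3 of cytochrome c oxidase and ATP6 and ATP8 of ATP synthase, all of the heavy strand. In unscaled signal each had its lowest value of the 3 stages at the Middle stage in 9 of 9 cattle. The median Middle signal was 77.5% of the Early one for COX2, 75.4% for COX3, 58.5% for ATP6 and 30.5% for ATP8. The Early medians were 78013, 112926, 51519 and 17691 in the same order, so the brighter probes kept more of their signal. The part of probe brightness in these differences, also in those relative to the array median, was not tested. Relative to the array median, ATP8 fell in the first period by 0.67 (SE 0.28, limma adjusted *P* = 0.0449) and rose in the second by 1.03 (SE 0.28, limma adjusted *P* = 0.00324). COX2 rose by 0.75 (SE 0.17, limma adjusted *P* = 0.00068) and then fell by 0.62 (SE 0.17, limma adjusted *P* = 0.00244), COX3 rose by 0.83 (SE 0.17, limma adjusted *P* = 0.000304) and then fell by 0.64 (SE 0.17, limma adjusted *P* = 0.00209), and ATP6 rose by 0.41 (SE 0.18, limma adjusted *P* = 0.0496) and then changed by −0.03, although without scaling all 3 turned to −0.47, −0.40 and −0.81 in the first period and to 0.51, 0.50 and 1.1 in the second. The calls of ATP8 and ATP6 in the first period stood close to the threshold. That of ATP8 was lost in the fit without the animal block (limma adjusted *P* = 0.0605), at the 75th percentile (0.0798), under a random slide block (0.364) and without animal 1, 2, 5, 6, 7 or 8 (0.0695 to 0.143), and that of ATP6 without the animal block (0.0676), under quantile normalization (0.823), under a random slide block (0.161) and without animal 1, 3, 4, 7, 8 or 9 (0.0637 to 0.164). Under quantile normalization COX2 was not called either (0.05 and −0.06), and a random slide block left ATP8, COX2 and COX3 uncalled in the second period (limma adjusted *P* = 0.154, 0.0578 and 0.069). ND6 exceeded each of the 4 genes in its change of the first period in 9 of 9 cattle, by 1.65 to 3.15 on average.

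Probes were ranked by how closely their level followed ND6 over the 27 arrays, among the probes well above background on all of them. The 5 closest of 6763 were NAP1L1, a histone chaperone (Pearson's r = 0.952), CACFD1 (0.941), IQCC (0.934), SNRNP40, a component of the spliceosome (0.931), and FLYWCH2 (0.925), all nuclear genes. Their log2 changes were 0.72 to 1.47 during the first period and −2.0 to −1.02 during the second, so that ND6 moved farther than each of them. The heavy-strand complex I genes and CYTB stood at r of −0.740 (ND2) to 0.0868 (ND1) with ND6. The other heavy-strand genes stood at 0.527 (COX3), 0.511 (COX2), 0.00139 (ATP6) and −0.671 (ATP8). The mean of the heavy-strand genes was followed most closely by ATP8 (r = 0.967), which neighbours ATP6 on the heavy strand, then by ZNF346 (0.899), PAX9, an epithelial transcription factor (0.893), ACY1 (0.833) and LOC520023 (0.825), of 6758 probes. The correlations are a description over arrays that share stages, cattle and slides.

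The nuclear partners of the same complexes moved in both directions. Of 37 nuclear complex I subunits, 10 rose, 14 fell and 13 did not pass the test in the first period (median log2 change −0.14, against 0.32 over all probes), and 19 rose, 7 fell and 11 did not pass in the second (median 0.39, against −0.27). Of all probes 45.3% were called higher and 21.3% lower in the first period, and 27% higher and 44.6% lower in the second. Among the subunits that rose in the first period, NDUFA5, NDUFB1 and NDUFB4 were well above background on 0 Early and 0 Middle arrays. NDUFB1 and NDUFB4 were also among those that fell in the second, so these calls were made on values near background. NDUFC1, an accessory subunit of the membrane arm, rose by 1.94 (SE 0.19, limma adjusted *P* = 2.43e-07) and then fell by 2.64 (limma adjusted *P* = 2.19e-09), in 9 of 9 cattle each time, the same order of directions as ND6. NDUFS1, the largest subunit with iron-sulfur clusters, fell by 1.74 (SE 0.11, limma adjusted *P* = 1.67e-09) and then rose by 1.80 (limma adjusted *P* = 1.86e-10). NDUFS6 fell by 1.22 in the first period (limma adjusted *P* = 4.25e-05), and NDUFA6 fell by 1.89 in the second (limma adjusted *P* = 3e-11). With the slide as a fixed block NDUFC1, NDUFS1 and NDUFS6 were not called in the first period (limma adjusted *P* = 0.094, 0.102 and 0.518).

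Of 9 nuclear complex III subunits, 0 rose, 3 fell and 6 did not pass in the first period (median 0.03), and 5 rose, 1 fell and 3 did not pass in the second (median 0.34), beside the 45.3% higher and 21.3% lower of all probes, and then 27% and 44.6%. UQCRC1, a core subunit, fell by 2.30 (SE 0.18, limma adjusted *P* = 2.29e-08) and then rose by 2.02 (limma adjusted *P* = 2.81e-08) in 9 of 9 cattle each. UQCRFS1, the Rieske iron-sulfur protein, fell by 0.78 (limma adjusted *P* = 0.00038) and rose by 0.98 (limma adjusted *P* = 2.88e-05), UQCRC2 fell by 0.38 in the first period (limma adjusted *P* = 0.0181, but 0.223 under a random slide block and 0.0509 to 0.0528 without animal 2, 4 or 8), and UQCRQ fell by 0.98 in the second (limma adjusted *P* = 2.95e-06), a direction that turned to 0.15 without scaling. Over both complexes, 10 rose and 17 fell of 46 during the first period, and 24 rose and 8 fell during the second. The split moved with the scaling, to 7 and 20 under quantile normalization in the first period, to 21 and 13 at the 75th percentile in the second, and to 1 and 40 and then 38 and 2 without scaling. Without scaling the median of all probes itself changed by −0.90 and then 0.87. The shares of all probes called under settings other than median scaling are not given here. Counts under those settings are therefore not read as a result about the subunits. With the slide as a fixed block 2 rose and 1 fell in the first period. UQCRC1, UQCRFS1 and UQCRC2 were not called in that fit (limma adjusted *P* = 0.2, 0.133 and 0.752). In the total period 10 rose and 5 fell (11.2% and 8.93% of all probes), and 6 rose and 5 fell under quantile normalization and 5 and 8 under cyclic loess. Without dim probes, that is over the 41 subunits well above background on all arrays of at least 1 stage, 7 rose and 17 fell in the first period. In the second period 22 of the 41 rose and 9 fell. Of the assembly factors, 1 of 13 for complex I rose and 6 fell in the first period and 5 rose and 1 fell in the second, and of 5 for complex III, 2 rose and then 3 fell.

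**Figure D5:**
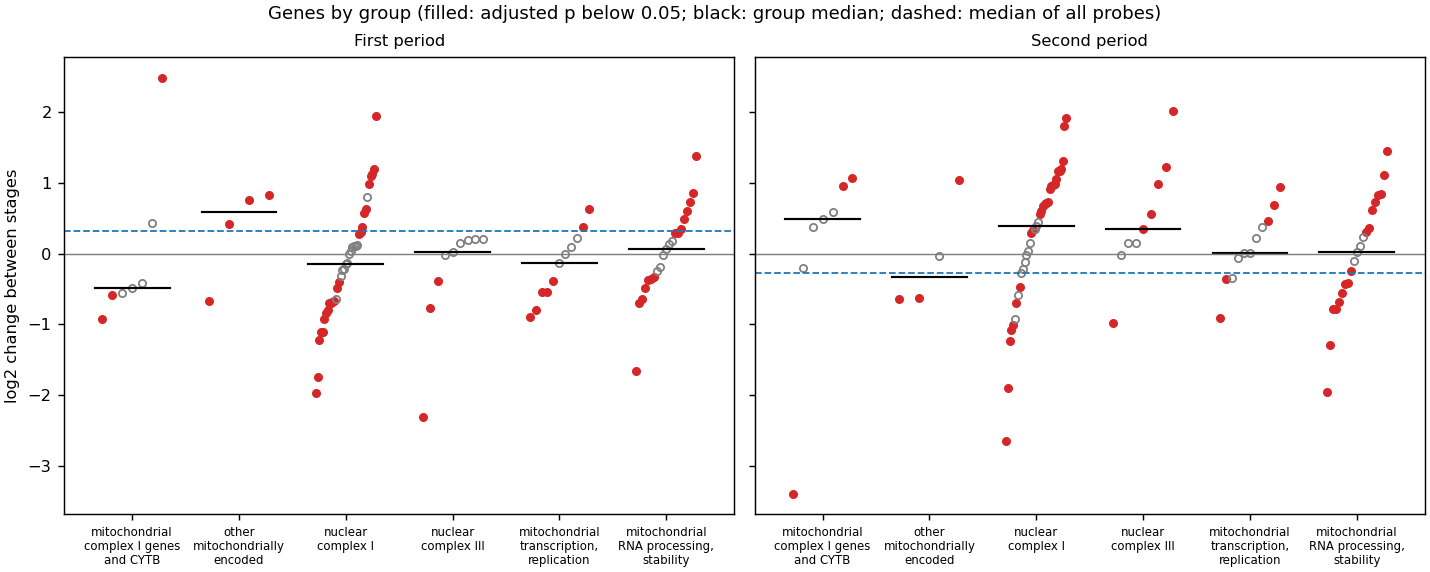
Log2 change of each gene (points) by group in the first and second periods, filled where limma called the change, with the group median as a black bar and the median of all probes dashed. ND6 lies at 2.48 and −3.39, and the other 6 genes of the first column lie between −0.93 and 0.43 and between −0.20 and 1.06.

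The nuclear genes whose products make, process and turn over mitochondrial RNA also moved in both directions. Of 32 on the array, 10 rose and 12 fell in the first period (median −0.02), 11 rose and 11 fell in the second (median 0.01), and 6 rose and 6 fell in the total period, where of all probes 45.3% rose and 21.3% fell, 27% and 44.6%, and 11.2% and 8.93%. Under a random slide block 9 rose and 3 fell in the first period. Of the 11 for transcription and replication, 2 rose and 5 fell in the first period, and POLRMT, the mitochondrial RNA polymerase, was among the genes that rose and TFB1M among those that fell. Of the 21 for RNA processing and stability, 8 rose and 7 fell. TRMT10C, a subunit of mitochondrial RNase P, which cuts the long transcripts, rose by 0.86 (SE 0.12, limma adjusted *P* = 1.36e-05), TBRG4, a factor of mitochondrial messenger stability, rose by 0.73 (limma adjusted *P* = 0.000283), and PNPT1, a polynucleotide phosphorylase, fell by 0.70 (limma adjusted *P* = 0.000583), although TRMT10C and TBRG4 turned to −0.37 and −0.49 without scaling. With the slide as a fixed block TRMT10C, TBRG4 and PNPT1 were not called (limma adjusted *P* = 0.183, 0.0544 and 0.986). In the second period REXO2, an oligoribonuclease, rose by 1.11 (limma adjusted *P* = 3.86e-06), FASTKD2 by 0.83 (limma adjusted *P* = 8e-05) and GRSF1, which binds G-rich RNA in mitochondrial RNA granules, by 0.82 (limma adjusted *P* = 0.00067, but 0.0906 under a random slide block), in 9 of 9 cattle each. The split went to 7 and 13 at the 75th percentile and 6 and 10 under cyclic loess in the second period, to 4 and 7 under quantile normalization or at the 75th percentile in the total period, and to 0 and 31 and then 29 and 1 without scaling. Without scaling the median of all probes changed by −0.90 and then 0.87. Shares of all probes under these settings are not given here, so nothing is read about these genes from the moved splits. Of 7 regulators of mitochondrial biogenesis, 2 rose and 1 fell during the first period, and 2 rose and 3 fell during the second.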

How the data were processed

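RNA of 27 RE biopsies was labeled with cyanine 3 and hybridized to customized bovine arrays. The authors made the deposited intensity values, processed signals after subtraction of the local background, with Feature Extraction, version 11.0.1.1 in the output and 9.5 per the labels. The 0 or 1 marks of each spot (well above background, saturated, outlier) are also as deposited. The authors' table of log2 values, relative to about the 75th percentile of the array, was an alternative. The scale and centering were found by comparison with the scanner output (offset at most 0.0207).

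Outlier spots (103) were left missing, spots of a probe were averaged, and log2 values were set relative to the array median. limma 3.58.1 in R 4.3.3 fitted 1 mean per stage and 1 effect per animal over 15008 probes, with Benjamini-Hochberg adjustment and a threshold of 0.05, and a gene passing it is said to have been called. Arrays were paired by the running number in the sample titles, taken as the animal, since each of the 9 cattle gave a biopsy per stage. The labels do not state that a number is the same animal at each stage, so every within-animal value rests on this assumption. The correlation of deviations between arrays of 1 animal averaged 0.158 (24 of 27 pairs above 0). On simulated data with 200 of 15008 probes changed, the fit recovered 71% of probes changed 2-fold and 97% changed 4-fold for Middle against Early. Of the calls 2.89% were false there and 6.25% for Late against Middle. The simulated noise was independent between probes, without slide effects or dim Middle arrays, so these rates do not cover such effects in the data. Permutation tests ran over all 362880 orders of 9 cattle (scipy 1.17.1).

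Names follow the array design, and 11194 probes were matched to current symbols of the RefSeq gene table. A gene with several probes was represented by the brightest. The genes described and the lists were chosen with earlier results of these data known. Named were every mitochondrially encoded gene with a probe, per list and period the 3 genes with the largest change among those called, changed alike in at least 8 cattle and above background (well above, by the scanner's mark) throughout both stages, and the 5 probes most like ND6 or the heavy-strand mean. POLRMT and TFB1M were named after their values were seen. Alternatives were other scalings, backgrounds, filters, blocks, the methods' paired test and each animal left out. Cyclic loess, no scaling and a fit of scan day 1 only were chosen after seeing the data. Precision is limited by 9 arrays per stage and by the dim Middle arrays.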

Additional observations from a re-analysis of the deposited data

Results flagged for a closer look

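Of 27 sets of 9 arrays (7 genes, the heavy-strand mean and ND6 minus that mean, at 3 stages), 5 held an array far from the others, measured by the gap to its nearest neighbour over the range of the set. Chance flags about 1 in 20 such sets, and the sets share arrays. At the Early stage animal 6 was lowest for ND5 (gap ratio 0.555) and highest for ND6 minus the heavy-strand mean (0.576). At the Late stage animal 3 was highest for ND6 (0.507) and for ND6 minus the heavy-strand mean (0.522), and animal 5 was lowest for ND4L (0.552). Without animal 6 the within-stage r between ND6 and the heavy-strand mean at the Early stage went from −0.710 to −0.127.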

How the results depend on the processing

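Among the 7 genes, 3 were called in the first period, but 5 under quantile normalization, 6 under normexp background correction, 5 under cyclic loess, 7 without scaling, 1 under a random slide block, 0 under a fixed slide block (0 also at an unadjusted *P* below 0.05) and 0 on slide 2 alone (1 at an unadjusted *P* below 0.05). The fit of slide 2 sets 7 Middle arrays against 1 Early array, which is assumed to vary like them, so its low counts say little about the slide. In the second period 3 were called, but 5 under normexp, 7 without scaling and 1 under a random slide block. In the total period 1 was called, but 0 under a random slide block and 3 by the methods' t-test. Leaving out 1 animal gave 2 to 6 calls in the first and 3 to 5 in the second period, the highest without animal 4 each time. Of the nuclear complex I and III subunits, 27 were called in the first period, but 3 under a fixed slide block, 0 on slide 2 alone and 41 without scaling, and 15 in the total period, but 1 under a random slide block, 27 by the methods' t-test and 5 without scaling. Of the mitochondrial gene expression factors, 22 were called in the first period, but 12 under a random and 3 under a fixed slide block, 22 in the second, but 14 under a random slide block, and 12 in the total period, but 1 under a random slide block and 5 without scaling. The share of all probes called under each of these settings is not given here. Changes in these counts therefore cannot be told from a general gain or loss of calls.

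ND6 minus the heavy-strand genes could not move under 7 alternatives of each period, which shift all probes of an array alike or leave these values as they are. It kept its direction in the other 16 of the first and the other 13 of the second and of the total period. Those numbers include the fits without 1 animal, which could not turn it. All 9 cattle shared the sign in the first and second periods, and in the total period animal 3 alone differed, at 0.19. A fixed slide block moved it most in the first period, to 1.52, and normexp in the second, to −3.12, and in the total period, from −1.03 to −0.50. The ND6 change in the first period was 1.95 under normexp, 1.55 under a fixed slide block and 1.25 without scaling, and in the second −2.46 under normexp and −2.25 without scaling. The heavy-strand mean changed by −1.65 and 1.68 without scaling in those periods. Without scaling the direction turned in the first period for ND1 (−0.80), COX2 (−0.47), ATP6 (−0.81), COX3 (−0.40), TRMT10C (−0.37) and TBRG4 (−0.49), and in the second for ND1 (0.93), COX2 (0.51), ATP6 (1.1), COX3 (0.50) and UQCRQ (0.15). Normexp turned COX2 (−0.035) and ATP6 (−0.061) in the first, and ND1 (0.30), COX2 (0.0077) and ATP6 (0.28) in the second period, and quantile normalization turned COX3 (−0.094 and 0.12). A fixed slide block turned ND2 (0.36), ND4L (0.030), PNPT1 (0.023), NDUFS6 (0.75) and UQCRC2 (0.33) in the first period. The within-stage r of ND6 and the heavy-strand mean passed the threshold without scaling at the Early (−0.785) and Middle stages (−0.771). Leaving out 1 animal gave −0.839 to −0.515 at the Middle and −0.432 to 0.182 at the Late stage, the last without animal 3. Without the animal block, that is without the pairing, 3, 3 and 1 of the 7 genes were called, and 28, 32 and 15 of the nuclear subunits. Saturated spots numbered 0. The cause of these moves was not tested, apart from scaling, which shifts every probe of an array alike. Slide blocks could be fitted as fixed for the first period alone.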
